A study of Mus musculus with 8 samples.

Results

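The genes examined were 57 components of the machinery that carries a cell from G2 through mitosis: mitotic cyclins and kinases, the chromosomal passenger complex, the spindle checkpoint, separase, kinetochore proteins, mitotic kinesins, cytokinesis proteins and condensins. They were taken as a list of gene symbols. This list and the other gene lists below were chosen with earlier results of these data known. Shares of called genes above the background may in part reflect that choice. All 57 were present in the expression table with a mean of at least 0 on the log2 CPM scale (CPM, read counts scaled to a common library size) over the 8 libraries, a level that 12752 of the 13744 genes in the table reached. The lowest read number of any of the 57 in any library was 793, for Espl1, so none of them passed that filter through 1 genotype alone.

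The cells were labelled as Ly6C+ classical monocytes, and the design text calls them Ly6C-high. They came from mouse bone marrow of 4 genotypes, WT (wild-type), Nr4a1 KO, Irf2 KO and Bcl6 cKO, and each genotype was sequenced as 2 replicate RNA libraries. Bcl6 encodes a transcriptional repressor, Irf2 an interferon regulatory factor and Nr4a1 an orphan nuclear receptor needed by nonclassical, Ly6C-low monocytes. The sources used here do not spell out cKO or name a Cre driver, a strain, an age or a sex, and do not give the deleted exons. They also do not say whether the 2 libraries of a genotype came from separate mice, so p-values measure only the spread between these libraries, which may be technical.

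Classical monocytes arise in the marrow from dividing progenitors and leave the cell cycle as they mature, and mitotic transcripts are a standard readout of the dividing fraction. Most of these genes are transcribed late in the cycle under a shared control: the MuvB core binds a short cell cycle homology region (CHR) near the start site, joins the DREAM repressor complex in resting cells, and recruits B-Myb and FoxM1 in G2, often beside CCAAT boxes bound by NF-Y. Their protein products then act in sequence. Cyclin B with Cdk1 drives entry into mitosis, Aurora and Polo kinases build the spindle, the checkpoint holds Cdc20, and the anaphase-promoting complex (APC/C) with Cdc20 and Ube2c finally destroys cyclin B and securin so that separase can cut cohesin.

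The promoters of 6 of these genes are shown because they carry these elements beside a large, a moderate or no called difference from WT. Cdc20, Ube2c, Espl1 and Ccnb2 were among the genes with the largest differences described below, whereas Cdk1 and Mki67 passed the test in no comparison with WT. This choice was made after the values had been seen. The sequences are from RefSeq (GRCm38.p6), written 5′ to 3′ on each gene's own strand from 110 to 4 bases before the start site, and capitals mark CHR matches (TTTGAA or TTCGAA, on either strand) and CCAAT boxes (CCAAT, on either strand).
Cdc20, chr4:118437347-118437453, minus strand: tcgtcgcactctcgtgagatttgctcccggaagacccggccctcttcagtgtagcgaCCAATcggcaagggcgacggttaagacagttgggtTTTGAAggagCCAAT
Ube2c, chr2:164769819-164769925, plus strand: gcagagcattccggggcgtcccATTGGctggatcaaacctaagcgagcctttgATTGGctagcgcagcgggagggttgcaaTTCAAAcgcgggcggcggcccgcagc
Espl1, chr15:102296183-102296289, plus strand: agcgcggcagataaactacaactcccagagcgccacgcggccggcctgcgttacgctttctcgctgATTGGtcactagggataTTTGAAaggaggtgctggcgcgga
Ccnb2, chr9:70421558-70421664, minus strand: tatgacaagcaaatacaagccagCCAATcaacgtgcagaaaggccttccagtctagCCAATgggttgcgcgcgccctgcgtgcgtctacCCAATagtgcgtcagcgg
Cdk1, chr10:69352916-69353022, minus strand: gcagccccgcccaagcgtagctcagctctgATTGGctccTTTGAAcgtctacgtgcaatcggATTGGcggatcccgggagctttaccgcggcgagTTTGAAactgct
Mki67, chr7:135716383-135716489, minus strand: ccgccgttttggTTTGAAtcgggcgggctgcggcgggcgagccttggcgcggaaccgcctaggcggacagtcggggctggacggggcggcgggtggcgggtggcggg

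In these windows the CHR match of Cdc20 began 18 bases before the start site, that of Ube2c 29 bases and that of Espl1 27 bases. Ccnb2 had 3 CCAAT boxes in the printed stretch, at 87, 54 and 21 bases before the start. Its CHR matches lay outside the stretch, at 167 bases before and 5 bases after the start. RefSeq promoter windows were found for 48 of the 57 genes, as 51 windows of 300 bases, 250 of them before the start. Within the 250 bases before the start, 23 of the 51 windows (45.1%) held a CHR match, against 17.1% of all 32851 windows in the table. A CCAAT box was present in 38 of the 51 windows (74.5%), against 33.8% of all windows. Both elements were present within those 250 bases in 41.2% of the 51 windows and in 6.02% of all windows, and over the whole 300 bases in 70.6% and 7.52%. A CHR match and a CCAAT match can share no more than a single base. The shares were near each other for windows of genes called lower in Nr4a1 KO (18 windows, CHR in 50.0%, CCAAT in 77.8%) and for the windows of the rest (33 windows, CHR in 42.4%, CCAAT in 72.7%). A match is a description of these letters and does not show binding.

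The libraries held 46617756 to 62633123 reads in the table, so that 1 CPM stood for 47.9 to 61.8 reads. The targeted genes were checked first. Nr4a1 was lower in Nr4a1 KO by 2.31 on the log2 scale (2.32 and 2.98 log2 CPM, against 4.64 and 5.29 in WT). It was as low in Irf2 KO (2.59 and 2.52 log2 CPM, a difference of -2.41, adjusted p = 0.00163), so its level does not tell Nr4a1 KO from Irf2 KO. Irf2 was 6.50 and 6.69 log2 CPM in Irf2 KO, against 7.18 and 7.14 in WT (-0.56, adjusted p = 0.0222). Bcl6 went against its label, at 6.53 and 6.40 log2 CPM in libraries labelled Bcl6 cKO and at 4.66 and 4.64 in WT, and it was lower in Irf2 KO (-1.07, adjusted p = 0.00382). The libraries labelled Bcl6 cKO are therefore referred to by their label, and any direction drawn from them rests on it. The summed level of 8 classical monocyte markers, Ly6c2, Ccr2 and Csf1r among them, lay between 8980 and 11200 CPM in all 8 libraries. That sum is carried by Ly6c2 and F13a1, and single markers moved. In Irf2 KO 4 of the 8 fell (Cd14 by 1.02, Csf1r by 0.75, Itgam by 0.68 and F13a1 by 0.53), in Nr4a1 KO Cd14 (1.08) and Ccr2 (0.50) rose, and in the libraries labelled Bcl6 cKO Cd14 rose (1.13), with adjusted p from 0.0076 to 0.0349.

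The 57 mitotic genes were lowest in Nr4a1 KO. Summed over all 57, they took 11300 and 10500 CPM in the WT libraries, 10200 and 9230 CPM in the libraries labelled Bcl6 cKO, 11300 and 10900 CPM in Irf2 KO, and 8050 and 7520 CPM in Nr4a1 KO. Both Nr4a1 KO sums lay below the other 6 libraries. Nr4a1 KO replicate 2 was the lowest of the 8 libraries for 39 genes and Nr4a1 KO replicate 1 for 8. The highest value was in WT replicate 1 for 20 genes and in Irf2 KO replicate 1 for 15. In bulk RNA, fewer dividing cells in the gate and less mitotic RNA per dividing cell cannot be told apart.

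**Figure D1:**
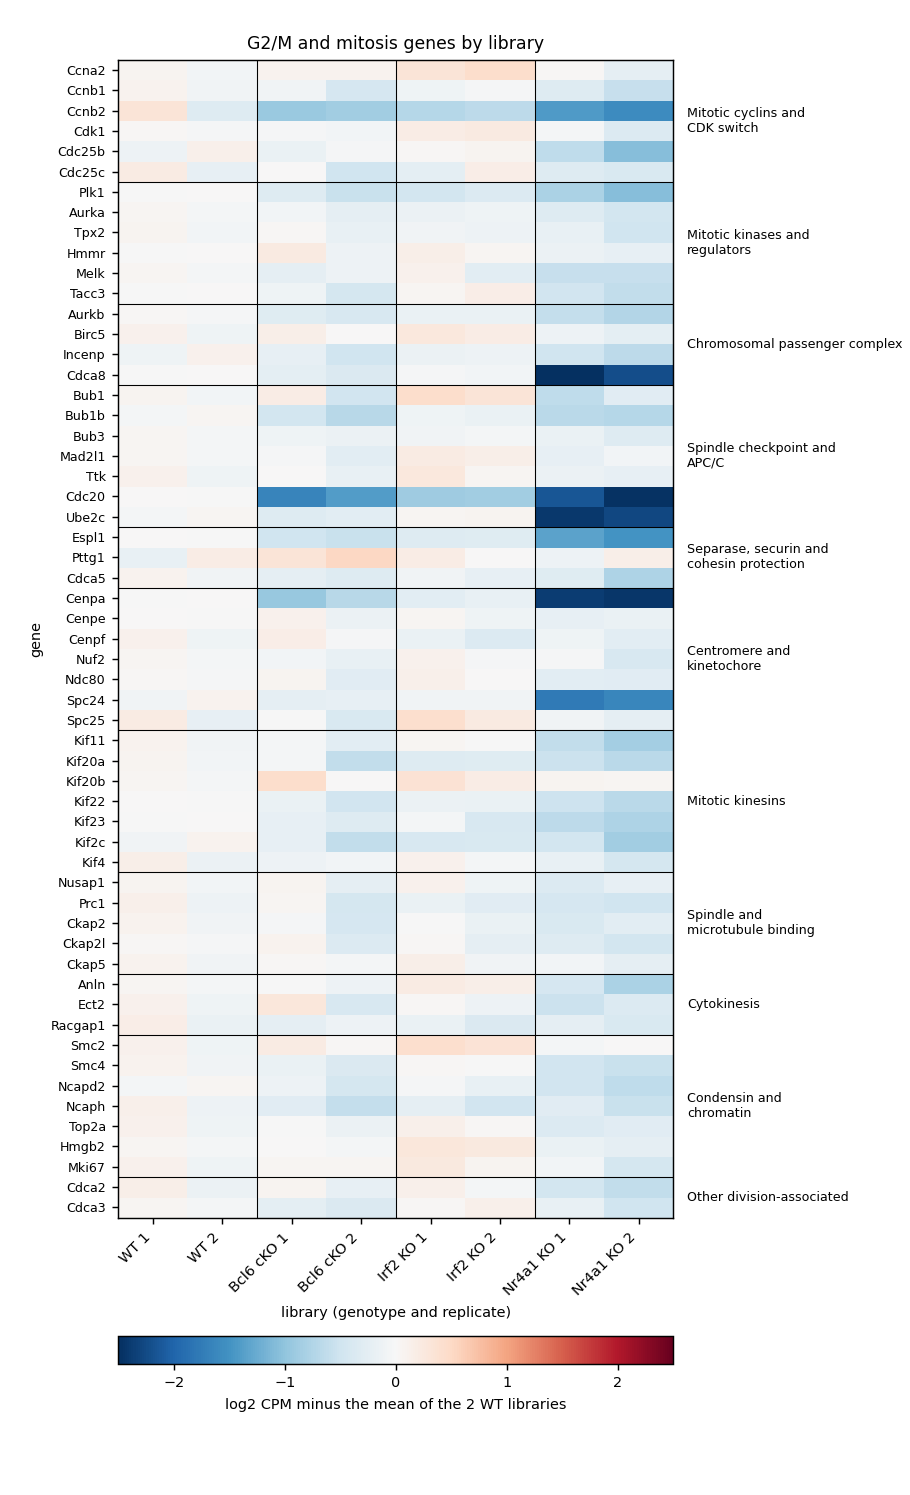
Heat map of the 57 genes (rows, grouped by role) in the 8 libraries (columns), coloured by log2 CPM minus the mean of the WT libraries. The Nr4a1 KO columns are blue for most genes, and darkest for Cdca8, Cdc20, Ube2c, Cenpa, Spc24, Ccnb2 and Espl1.

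Each difference below is a log2 fold change with its standard error (SE), from 1 limma model over all 8 libraries (n = 2 per genotype), with a Benjamini-Hochberg adjusted p over the 12752 genes. A gene was called when that p was under 0.05, and it "fell" or "rose" only then. Between Nr4a1 KO and WT, 24 of the 57 genes fell (42.1%) and none rose, where 15.1% of all genes tested were called, 11.2% lower and 3.94% higher. With limma's unadjusted p under 0.05, 33 were lower and 0 higher (2320 and 1533 of all 12752 genes). The limma-voom fit on recovered reads called 24 lower and 0 higher (1402 and 473 of all genes). The median over the 57 was -0.42, against 0.01 over all genes tested. Both Nr4a1 KO libraries lay below both WT libraries for 49 of the 57 genes (28.9% of all genes did so) and above both for 1 (27.9% of all genes), and the estimate was above 0 only for Pttg1 (0.01) and Kif20b (0.06).

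Of these 24, 12 were called in each of the 19 settings run: Ccnb2, Plk1, Aurkb, Cdca8, Bub1b, Cdc20, Ube2c, Espl1, Cenpa, Spc24, Kif11 and Kif23. The count rested in part on single libraries. It was 14 without either WT library and 15 without Nr4a1 KO replicate 2, against 26 without Nr4a1 KO replicate 1.

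Between Irf2 KO and WT, 2 of the 57 genes fell, Cdc20 and Ccnb2, and 1 rose, Smc2. Of all genes tested, 21.6% were called in this comparison, 12.3% lower and 9.26% higher, so both shares of the mitotic genes were below the background. The median over the 57 was -0.04, the same as over all genes. It turned to 0.06 with each library centred on its median, 0.02 with quantile normalization and 0.04 with a correction for GC content and length. The median of all genes turned to 0.06, 0.02 and 0.04 in the same settings. The count of 3 became 1 without Bcl6 cKO replicate 1 or either Irf2 KO library and 5 without either Nr4a1 KO library. Both Irf2 KO libraries lay below both WT libraries for 20 of the 57 (35.8% of all genes) and above both for 13 (30.1%). Centring gave 3 higher and 1 lower (1666 and 1142 of all genes), limma-voom 2 higher and 3 lower (1190 and 1541). Between the libraries labelled Bcl6 cKO and WT, 5 of the 57 fell (8.77%) and none rose, where 5.01% of all genes were called, 3.65% lower and 1.36% higher. With limma's unadjusted p under 0.05, 15 were lower and 1 higher (1669 and 1086 of all genes). The limma-voom fit called 5 lower and 0 higher (537 and 202 of all genes). Those that fell were Cdc20, Ccnb2, Cenpa, Bub1b and Espl1, and the median over the 57 was -0.16, against -0.01 over all genes. Their 2 libraries lay below both WT libraries for 25 of the 57 (28.4% of all genes) and above both for 2 (26.8%). The count of 5 became 1 without Bcl6 cKO replicate 1, 2 without Bcl6 cKO replicate 2 or WT replicate 1, and 3 without WT replicate 2, and Cdc20 alone was called in each of the 19 settings. The 3 comparisons share the WT libraries and are not independent of each other.

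**Figure D2:**
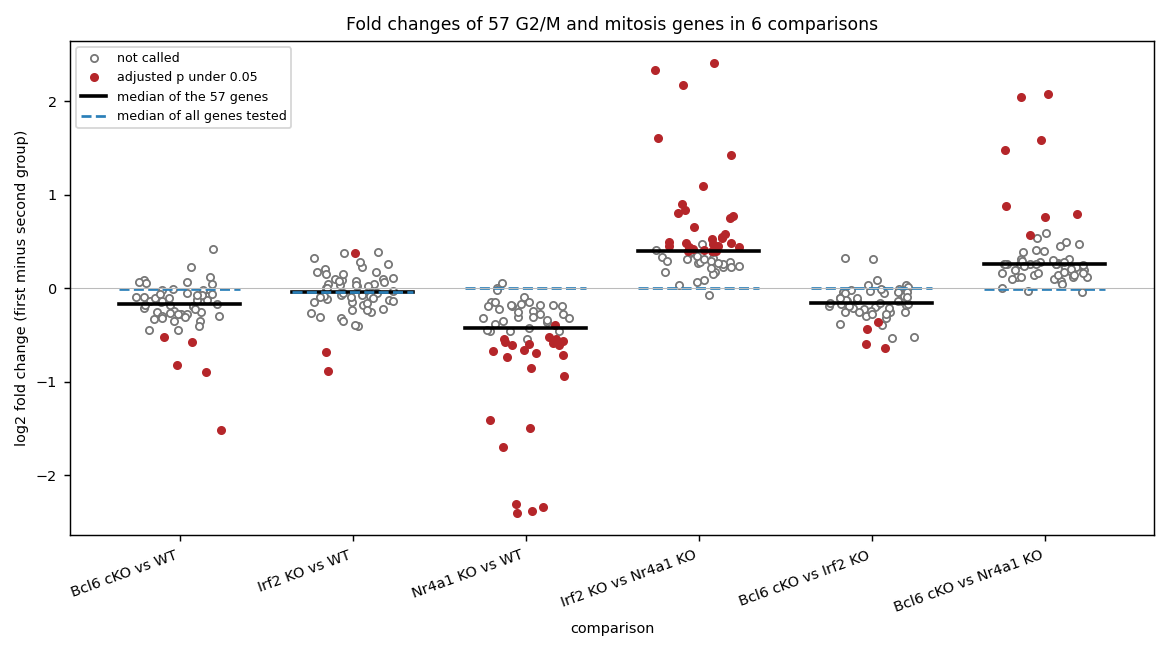
Log2 fold changes of the 57 genes (1 point per gene) in the 6 comparisons between genotypes, with filled points for adjusted p under 0.05, a black bar at their median and a dashed bar at the median of all genes tested. The medians stand farthest from those of all genes for Nr4a1 KO against WT (-0.42) and Irf2 KO against Nr4a1 KO (0.40).

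Among the mitotic cyclins and the Cdk1 switch, 2 of 6 genes fell in Nr4a1 KO, Ccnb2 and Cdc25b. Ccnb2, a B-type cyclin that activates Cdk1, was 8.54 and 7.90 log2 CPM in WT, 7.29 and 7.35 in the libraries labelled Bcl6 cKO, 7.50 and 7.57 in Irf2 KO, and 6.80 and 6.65 in Nr4a1 KO. Both WT libraries were above the other 6, both Nr4a1 KO libraries were below them, and WT varied more than any other genotype. Ccnb2 fell by 1.49 in Nr4a1 KO (SE 0.18, adjusted p = 0.000782), by 0.90 in the libraries labelled Bcl6 cKO (SE 0.18, adjusted p = 0.0281) and by 0.68 in Irf2 KO (SE 0.18, adjusted p = 0.0294). The last 2 calls depended on single libraries: the one for Bcl6 cKO was lost without WT replicate 1 or either of its own libraries (adjusted p up to 0.187). The one for Irf2 KO was lost without WT replicate 1 or any library of Bcl6 cKO or Irf2 KO (adjusted p up to 0.121).

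Cdc25b, a phosphatase that removes the inhibitory phosphates from Cdk1, was 5.84 and 6.10 log2 CPM in WT, 5.81 and 5.94 in the libraries labelled Bcl6 cKO, 5.99 and 6.04 in Irf2 KO, and 5.33 and 4.90 in Nr4a1 KO. It fell by 0.85 in Nr4a1 KO (SE 0.16, adjusted p = 0.00788, and 0.0611 without WT replicate 2), whose libraries alone stood apart. The other 4 genes of this role passed no test against WT, with estimates in Nr4a1 KO from -0.45 to -0.10. Ccnb1, the main mitotic cyclin, was 8.15 and 7.97 log2 CPM in WT, 7.97 and 7.65 in the libraries labelled Bcl6 cKO, 7.95 and 8.03 in Irf2 KO, and 7.73 and 7.49 in Nr4a1 KO. Its difference in Nr4a1 KO, -0.45 with an SE of 0.13, had an adjusted p of 0.0545, although its libraries did not overlap with WT. Cdk1, the kinase itself, was 7.70 and 7.64 log2 CPM in WT, 7.64 and 7.59 in the libraries labelled Bcl6 cKO, 7.85 and 7.89 in Irf2 KO, and 7.61 and 7.33 in Nr4a1 KO. Its difference in Nr4a1 KO was -0.19 (SE 0.11, adjusted p = 0.268), with both libraries below WT.

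Of the 6 mitotic kinases and their regulators, 4 fell in Nr4a1 KO: Plk1, Aurka, Melk and Tacc3. Plk1, the Polo kinase of centrosome maturation and mitotic exit, was 7.11 and 7.15 log2 CPM in WT, 6.80 and 6.58 in the libraries labelled Bcl6 cKO, 6.67 and 6.79 in Irf2 KO, and 6.33 and 6.06 in Nr4a1 KO. It fell by 0.93 in Nr4a1 KO (SE 0.12, adjusted p = 0.00135). All 3 mutant genotypes lay below WT without overlap, but the differences for Bcl6 cKO (-0.44, adjusted p = 0.0847) and Irf2 KO (-0.40, adjusted p = 0.0518) missed the threshold.

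Aurka, the spindle-pole Aurora kinase, was 7.14 and 7.05 log2 CPM in WT, 7.03 and 6.88 in the libraries labelled Bcl6 cKO, 6.94 and 6.99 in Irf2 KO, and 6.77 and 6.63 in Nr4a1 KO. It fell by 0.39 in Nr4a1 KO (SE 0.10, adjusted p = 0.0347), the smallest of its 24 falls. Its call was lost without either WT library, Bcl6 cKO replicate 1, either Irf2 KO library or Nr4a1 KO replicate 2 (adjusted p up to 0.144). Melk, the maternal embryonic leucine zipper kinase, was 5.97 and 5.87 log2 CPM in WT, 5.69 and 5.80 in the libraries labelled Bcl6 cKO, 6.03 and 5.66 in Irf2 KO, and 5.35 and 5.34 in Nr4a1 KO. It fell by 0.58 in Nr4a1 KO (SE 0.14, adjusted p = 0.0243), a call lost without any 1 of the WT or Nr4a1 KO libraries (adjusted p up to 0.111). Tacc3, which stabilises spindle microtubules under Aurora A, was 7.64 and 7.65 log2 CPM in WT, 7.54 and 7.20 in the libraries labelled Bcl6 cKO, 7.70 and 7.81 in Irf2 KO, and 7.17 and 7.03 in Nr4a1 KO. It fell by 0.54 in Nr4a1 KO (SE 0.12, adjusted p = 0.0197), with the call lost without either WT library or Nr4a1 KO replicate 2 (adjusted p up to 0.0893). For all 3 genes the Nr4a1 KO libraries were the lowest of the 8, and Tpx2 and Hmmr, the remaining genes of this role, had estimates of -0.34 and -0.18 without a call.

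The chromosomal passenger complex consists of the kinase Aurora B (Aurkb), the scaffold INCENP (Incenp), survivin (Birc5) and borealin (Cdca8), and its members differed in size of change. Cdca8 (chr4:124918465-124939311, minus strand) was 8.55 and 8.56 log2 CPM in WT, 8.32 and 8.20 in the libraries labelled Bcl6 cKO, 8.52 and 8.49 in Irf2 KO, and 6.005 and 6.338 in Nr4a1 KO. It fell by 2.38 in Nr4a1 KO, a 5.22-fold lower level (SE 0.12, adjusted p = 1.61e-05), and the Nr4a1 KO libraries lay far below the other 6, which spanned 8.20 to 8.56. Aurkb was 7.80 and 7.76 log2 CPM in WT, 7.48 and 7.37 in the libraries labelled Bcl6 cKO, 7.60 and 7.61 in Irf2 KO, and 7.18 and 7.05 in Nr4a1 KO. It fell by 0.66 in Nr4a1 KO (SE 0.09, adjusted p = 0.00179), and the 4 genotypes did not overlap, in the order WT, Irf2 KO, Bcl6 cKO, Nr4a1 KO.

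Incenp was 6.74 and 6.94 log2 CPM in WT, 6.64 and 6.35 in the libraries labelled Bcl6 cKO, 6.70 and 6.72 in Irf2 KO, and 6.35 and 6.19 in Nr4a1 KO. It fell by 0.57 in Nr4a1 KO (SE 0.13, adjusted p = 0.0185, up to 0.116 without WT replicate 2 or Nr4a1 KO replicate 2). Birc5 was 8.46 and 8.25 log2 CPM in WT, 8.49 and 8.36 in the libraries labelled Bcl6 cKO, 8.61 and 8.55 in Irf2 KO, and 8.22 and 8.12 in Nr4a1 KO. Its difference in Nr4a1 KO was -0.19 (SE 0.10, adjusted p = 0.262), so 1 of the 4 subunits of the complex passed no test against WT.

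The spindle checkpoint and APC/C genes ranged widely, with Cdc20 and Ube2c about 5-fold below WT in Nr4a1 KO, Bub1b moderately below it and 4 of the 7 genes without a call. Cdc20, the APC/C activator that the checkpoint restrains (chr4:118432901-118437352, minus strand), was 6.73 and 6.72 log2 CPM in WT, 5.08 and 5.33 in the libraries labelled Bcl6 cKO, 5.84 and 5.86 in Irf2 KO, and 4.58 and 4.25 in Nr4a1 KO. The 4 genotypes did not overlap. Cdc20 fell by 2.31 in Nr4a1 KO (SE 0.14, adjusted p = 2.43e-05), by 1.52 in the libraries labelled Bcl6 cKO (SE 0.14, adjusted p = 0.00238) and by 0.88 in Irf2 KO (SE 0.14, adjusted p = 0.00513). These correspond to 4.96-fold, 2.86-fold and 1.84-fold lower levels, and each call held in all 19 settings. Cdc20 was the only gene of the 57 called in all 6 comparisons between genotypes.

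Ube2c, the ubiquitin-conjugating enzyme that starts ubiquitin chains on APC/C substrates (chr2:164769898-164778822, plus strand), was 7.95 and 8.03 log2 CPM in WT, 7.67 and 7.72 in the libraries labelled Bcl6 cKO, 8.05 and 8.06 in Irf2 KO, and 5.58 and 5.71 in Nr4a1 KO. It fell by 2.34 in Nr4a1 KO (5.07-fold lower, SE 0.09, adjusted p = 1.61e-05), while the Irf2 KO libraries lay just above both WT libraries. Exons of Ube2c overlap those of Tnnc2 on the opposite strand over 22.8% of their length. The library kit does not mark strand, so reads of the 2 genes cannot be told apart there. Tnnc2 was not among the genes of the expression table, and its part in the Ube2c reads was not tested. Smaller shares of exon length overlap another gene for Kif4 (15.1%, Pdzd11), Cdc25c (12.7%, Gm3550), Ccna2 (12.5%, Exosc9) and Prc1 (11.1%, Rccd1). The same holds for Tacc3 (8.14%, Tmem129), Plk1 (7.09%), Ckap2l (5.77%), Cdca8 (4.48%), Nusap1 (4.24%, Oip5) and Cdc20 (2.84%, Elovl1), among others.

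Bub1b, the checkpoint protein BubR1, was 7.37 and 7.46 log2 CPM in WT, 6.96 and 6.72 in the libraries labelled Bcl6 cKO, 7.30 and 7.25 in Irf2 KO, and 6.73 and 6.71 in Nr4a1 KO. It fell by 0.70 in Nr4a1 KO (SE 0.11, adjusted p = 0.00269) and by 0.57 in the libraries labelled Bcl6 cKO (SE 0.11, adjusted p = 0.0198), the latter call lost without any 1 of the WT or Bcl6 cKO libraries (adjusted p up to 0.129). Bub1, its partner kinase, was 5.41 and 5.26 log2 CPM in WT, 5.53 and 4.85 in the libraries labelled Bcl6 cKO, 5.78 and 5.67 in Irf2 KO, and 4.70 and 5.06 in Nr4a1 KO. Its difference in Nr4a1 KO was -0.46 (SE 0.22, adjusted p = 0.197), and the libraries labelled Bcl6 cKO spanned the WT values. The checkpoint genes Bub3, Mad2l1 and Ttk passed no test against WT, with estimates in Nr4a1 KO between -0.25 and -0.14.

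Separase, the protease that cuts cohesin (Espl1, chr15:102296266-102324357, plus strand), was 5.55 and 5.53 log2 CPM in WT, 5.04 and 4.99 in the libraries labelled Bcl6 cKO, 5.22 and 5.24 in Irf2 KO, and 4.21 and 4.05 in Nr4a1 KO. Espl1 fell by 1.41 in Nr4a1 KO (2.66-fold lower, SE 0.12, adjusted p = 0.000112). The 4 genotypes did not overlap, in the same order as for Cdc20. It fell by 0.53 in the libraries labelled Bcl6 cKO (SE 0.12, adjusted p = 0.0418), a call lost without any 1 of the WT, Bcl6 cKO or Irf2 KO libraries (adjusted p up to 0.205) and after correction for GC content (-0.31, adjusted p = 0.244). Its inhibitor securin (Pttg1) had the opposite tendency in those libraries, with an estimate of 0.42 that did not pass the test (adjusted p = 0.173), and 0.01 in Nr4a1 KO. Cdca5, the cohesion protector sororin, had -0.54 in Nr4a1 KO with an adjusted p of 0.0541.

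At the centromere, 2 of 7 genes fell in Nr4a1 KO, and both did so more than 3-fold. Cenpa, the histone H3 variant that marks centromeres (chr5:30666777-30674830, plus strand), was 8.19 and 8.21 log2 CPM in WT, 7.27 and 7.50 in the libraries labelled Bcl6 cKO, 7.94 and 8.02 in Irf2 KO, and 5.83 and 5.78 in Nr4a1 KO. It fell by 2.40 in Nr4a1 KO (5.29-fold lower, SE 0.10, adjusted p = 1.61e-05) and by 0.82 in the libraries labelled Bcl6 cKO (SE 0.10, adjusted p = 0.00589, and 0.0703 without Bcl6 cKO replicate 1). The 4 genotypes again did not overlap.

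Spc24, a subunit of the NDC80 complex that grips microtubules (chr9:21755442-21760303, minus strand), was 7.78 and 7.95 log2 CPM in WT, 7.64 and 7.66 in the libraries labelled Bcl6 cKO, 7.78 and 7.78 in Irf2 KO, and 6.09 and 6.24 in Nr4a1 KO. It fell by 1.69 in Nr4a1 KO (3.24-fold lower, SE 0.10, adjusted p = 2.1e-05). The other 3 subunits of that complex passed no test: in Nr4a1 KO the estimates were -0.15 for Spc25, -0.27 for Ndc80 and -0.22 for Nuf2. Cenpe, a kinetochore kinesin, and Cenpf, a large kinetochore protein, were each at -0.18. The fold changes of the 4 subunits were not tested against each other.

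**Figure D3:**
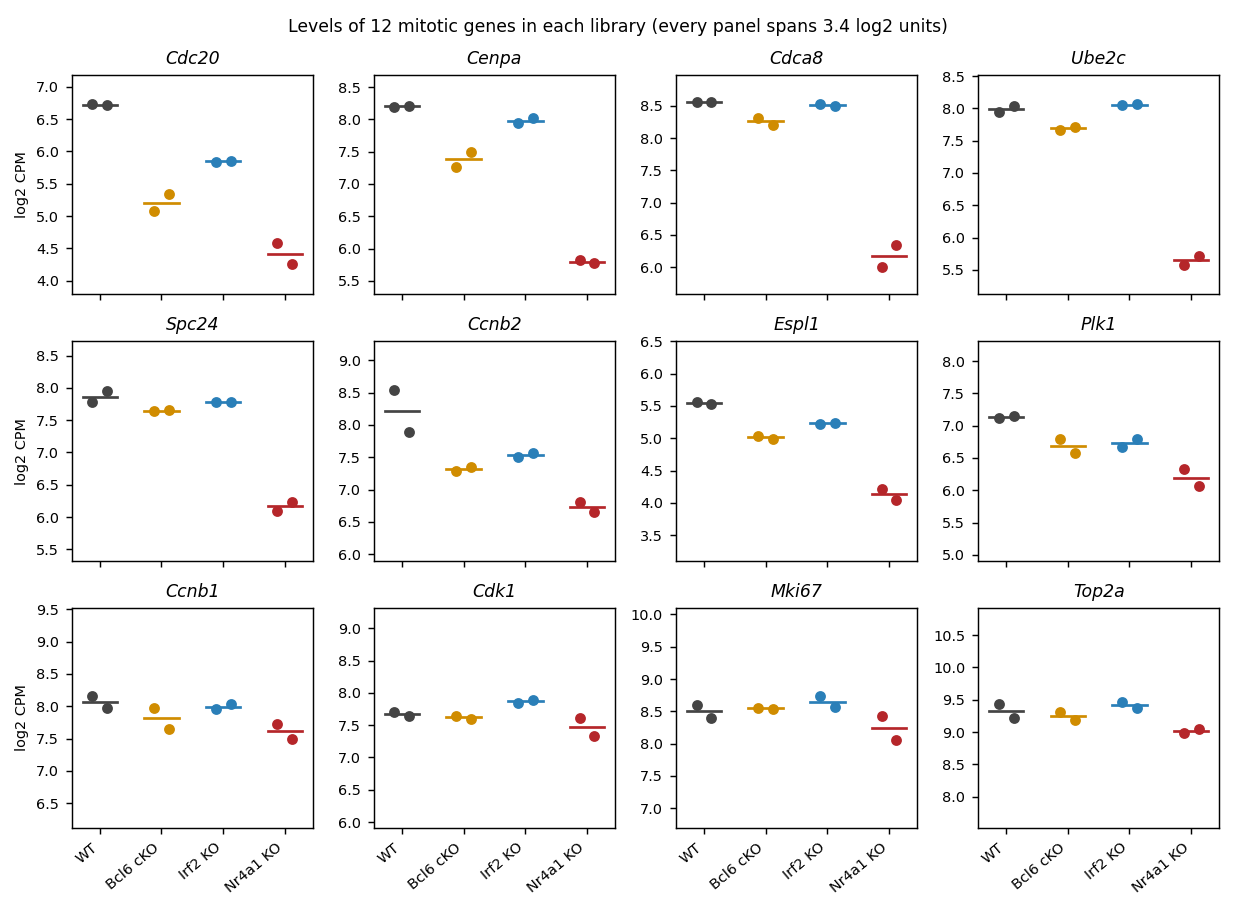
Level of 12 of the genes in every library (points, log2 CPM) with the mean of each genotype (bars, n = 2), each panel spanning the same range of log2 units. Cdc20, Cenpa, Cdca8, Ube2c, Spc24, Ccnb2 and Espl1 are lowest in both Nr4a1 KO libraries by a wide margin, while Cdk1 (7.33 to 7.89 log2 CPM), Mki67 (8.06 to 8.74) and Top2a (8.98 to 9.46) span less than 1 log2 unit over all libraries.

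Of the 7 mitotic kinesins, 5 fell in Nr4a1 KO, by 0.60 to 0.73. Kif11, the motor that pushes spindle poles apart, was 6.91 and 6.72 log2 CPM in WT, 6.76 and 6.54 in the libraries labelled Bcl6 cKO, 6.86 and 6.81 in Irf2 KO, and 6.20 and 5.96 in Nr4a1 KO, a fall of 0.73 (SE 0.13, adjusted p = 0.00542). Kif23, the centralspindlin motor of cytokinesis, was 7.07 and 7.09 log2 CPM in WT, 6.88 and 6.76 in the libraries labelled Bcl6 cKO, 7.02 and 6.67 in Irf2 KO, and 6.42 and 6.31 in Nr4a1 KO, a fall of 0.71 (SE 0.13, adjusted p = 0.00665). For both motors the Nr4a1 KO libraries stood below all others, and both calls held in all 19 settings.

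The remaining 3 kinesin calls were less stable. Kif2c, which depolymerises kinetochore microtubules, was 6.40 and 6.59 log2 CPM in WT, 6.30 and 5.88 in the libraries labelled Bcl6 cKO, 6.09 and 6.11 in Irf2 KO, and 6.03 and 5.62 in Nr4a1 KO. It fell by 0.67 in Nr4a1 KO (SE 0.17, adjusted p = 0.0349), with the call lost without either WT library, either Irf2 KO library or Nr4a1 KO replicate 2 (adjusted p up to 0.171). Its Nr4a1 KO libraries overlapped those labelled Bcl6 cKO. Kif20a, a motor of the central spindle, was 7.149 and 6.996 log2 CPM in WT, 7.03 and 6.47 in the libraries labelled Bcl6 cKO, 6.75 and 6.77 in Irf2 KO, and 6.53 and 6.39 in Nr4a1 KO. It fell by 0.61 in Nr4a1 KO (SE 0.17, adjusted p = 0.0434), a call lost without any 1 of the WT, Irf2 KO or Nr4a1 KO libraries (adjusted p up to 0.171), and 29.3% of its exon length overlaps Cdc23 on the opposite strand. Kif22, the chromokinesin Kid, was 7.93 and 7.91 log2 CPM in WT, 7.76 and 7.45 in the libraries labelled Bcl6 cKO, 7.77 and 7.76 in Irf2 KO, and 7.40 and 7.25 in Nr4a1 KO. Its Nr4a1 KO libraries were the lowest of the 8. It fell by 0.60 in Nr4a1 KO (SE 0.12, adjusted p = 0.00992, and up to 0.0521 without either WT library), and the estimates of Kif4 and Kif20b were -0.31 and 0.06.

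None of the 5 spindle and microtubule binding genes (Nusap1, Prc1, Ckap2, Ckap2l and Ckap5) passed limma's test against WT in any genotype. With unadjusted p under 0.05, 2 of the 5 were lower in Nr4a1 KO and 0 in the other genotypes, and limma-voom called 0 in all 3 comparisons. Their estimates in Nr4a1 KO ran from -0.45 for Prc1 to -0.15 for Ckap5. Of the 3 cytokinesis genes, Anln, the contractile ring scaffold anillin, fell in Nr4a1 KO. It was 5.98 and 5.90 log2 CPM in WT, 5.93 and 5.81 in the libraries labelled Bcl6 cKO, 6.14 and 6.08 in Irf2 KO, and 5.52 and 5.14 in Nr4a1 KO. The fall was 0.61 (SE 0.14, adjusted p = 0.0209), lost without either WT library or Nr4a1 KO replicate 2 (adjusted p up to 0.0957). Ect2, the RhoA activator, and Racgap1, its partner, had -0.44 and -0.30 and were not called.

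Among the 7 condensin and chromatin genes, the condensin subunits Smc4 and Ncapd2 fell in Nr4a1 KO. Smc4 was 8.30 and 8.11 log2 CPM in WT, 8.04 and 7.85 in the libraries labelled Bcl6 cKO, 8.24 and 8.19 in Irf2 KO, and 7.73 and 7.64 in Nr4a1 KO, a fall of 0.52 (SE 0.11, adjusted p = 0.0112, and 0.0727 without WT replicate 1). Ncapd2 was 7.57 and 7.68 log2 CPM in WT, 7.51 and 7.19 in the libraries labelled Bcl6 cKO, 7.60 and 7.44 in Irf2 KO, and 7.14 and 6.98 in Nr4a1 KO, a fall of 0.56 (SE 0.13, adjusted p = 0.0195, up to 0.11 without either WT library or Nr4a1 KO replicate 2). In both, Nr4a1 KO lay below every other library.

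Smc2, the partner of Smc4, was the only member higher in a mutant by the test against WT. It fell outside the rule for genes given by library and is shown because of that call, a choice made after its values were seen. It was 7.98 and 7.76 log2 CPM in WT, 8.08 and 7.91 in the libraries labelled Bcl6 cKO, 8.30 and 8.21 in Irf2 KO, and 7.82 and 7.88 in Nr4a1 KO. Smc2 rose by 0.38 in Irf2 KO (SE 0.11, adjusted p = 0.0364), a call lost without WT replicate 2, Bcl6 cKO replicate 1 or either Irf2 KO library (adjusted p up to 0.193). Both Irf2 KO libraries were above the other 6.

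The proliferation markers Mki67 and Top2a passed no test against WT. Mki67, which encodes the Ki-67 antigen, was 8.60 and 8.39 log2 CPM in WT, 8.56 and 8.54 in the libraries labelled Bcl6 cKO, 8.74 and 8.56 in Irf2 KO, and 8.43 and 8.06 in Nr4a1 KO. Its difference in Nr4a1 KO was -0.26 (SE 0.14, adjusted p = 0.241), and its libraries overlapped WT. Top2a, the DNA topoisomerase of chromosome decatenation, was 9.43 and 9.22 log2 CPM in WT, 9.32 and 9.19 in the libraries labelled Bcl6 cKO, 9.46 and 9.36 in Irf2 KO, and 8.98 and 9.04 in Nr4a1 KO. Its difference in Nr4a1 KO was -0.32 (SE 0.10, adjusted p = 0.0696), with both libraries below all others. Cdca2, which targets protein phosphatase 1 to chromosomes, was 6.86 and 6.54 log2 CPM in WT, 6.77 and 6.50 in the libraries labelled Bcl6 cKO, 6.83 and 6.66 in Irf2 KO, and 6.24 and 6.08 in Nr4a1 KO. It fell by 0.54 in Nr4a1 KO (SE 0.14, adjusted p = 0.0378), a call lost without WT replicate 1, Nr4a1 KO replicate 2 or any library of Bcl6 cKO or Irf2 KO (adjusted p up to 0.183).

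Direct comparison of the mutants separated Irf2 KO from Nr4a1 KO. Of the 57 genes, 29 were higher in Irf2 KO and none lower, where 22.3% of all genes tested were called, 12.4% higher and 9.94% lower. With limma's unadjusted p under 0.05 the counts were 37 and 0 (2416 and 2232 of all genes). The limma-voom fit called 29 and 0 (1547 and 1197 of all genes). Both Irf2 KO libraries were above both Nr4a1 KO libraries for 52 genes (32.1% of all genes) and below both for none (31.0%). The largest differences were those of Ube2c (2.41, SE 0.09), Cdca8 (2.34, SE 0.12), Cenpa (2.18, SE 0.10), Spc24 (1.61, SE 0.10) and Cdc20 (1.43, SE 0.14), with adjusted p of at most 0.000308. The count was 14 without Irf2 KO replicate 1, 16 without Irf2 KO replicate 2 and 18 without Nr4a1 KO replicate 2. In each of 18 settings, 13 genes were called: Cdc25b, Tacc3, Aurkb, Cdca8, Bub1b, Cdc20, Ube2c, Espl1, Cenpa, Spc24, Kif11, Anln and Hmgb2.

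Among these 29 were 7 genes called in no comparison with WT. They were Bub1 (0.84, SE 0.22, adjusted p = 0.0256), Ccna2 (0.47, SE 0.13, adjusted p = 0.0283), Hmgb2 (0.45, SE 0.09, adjusted p = 0.00719), Cdca3 (0.42, SE 0.12, adjusted p = 0.034), Birc5 (0.41, SE 0.10, adjusted p = 0.0221), Top2a (0.40, SE 0.10, adjusted p = 0.0226) and Cdk1 (0.40, SE 0.11, adjusted p = 0.0307). All but Hmgb2 lost the call when 1 of several libraries was left out, with adjusted p up to 0.163. Ccna2, the S phase and G2 cyclin, was 5.46 and 5.32 log2 CPM in WT, 5.48 and 5.47 in the libraries labelled Bcl6 cKO, 5.71 and 5.82 in Irf2 KO, and 5.41 and 5.17 in Nr4a1 KO. Hmgb2, a chromatin-bending protein, was 10.95 and 10.84 log2 CPM in WT, 10.91 and 10.85 in the libraries labelled Bcl6 cKO, 11.18 and 11.13 in Irf2 KO, and 10.73 and 10.67 in Nr4a1 KO. For both genes the mean was highest in Irf2 KO and lowest in Nr4a1 KO, with WT between. The Nr4a1 KO libraries overlapped WT for Ccna2 (-0.10, adjusted p = 0.66).

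The libraries labelled Bcl6 cKO lay between the other mutants. Compared with Nr4a1 KO, 8 of the 57 genes were higher and none lower, where 5.75% of all genes were called, 4.97% higher and 0.776% lower. With limma's unadjusted p under 0.05 the counts were 21 and 0 (1586 and 810 of all genes). The limma-voom fit called 8 and 0 (589 and 105 of all genes). They were Cdca8 (2.08), Ube2c (2.05), Cenpa (1.58), Spc24 (1.48), Espl1 (0.89), Cdc20 (0.79), Cdc25b (0.76) and Kif11 (0.57), with adjusted p from 3.73e-05 to 0.0332. The first 5 were called in each of 18 settings. Without Bcl6 cKO replicate 2 only these 5 were called, and Cdc20, Cdc25b and Kif11 were not (adjusted p up to 0.224). Both libraries labelled Bcl6 cKO were above both Nr4a1 KO libraries for 36 genes (25.6% of all genes) and below both for none (23.4%).

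Compared with Irf2 KO, the libraries labelled Bcl6 cKO had 4 of the 57 genes lower and none higher, where 9.55% of all genes were called, 3.87% lower and 5.68% higher. With limma's unadjusted p under 0.05, 14 were lower and 1 higher (1647 and 1788 of all genes). The limma-voom fit called 4 and 0 (554 and 709 of all genes). They were Cdc20 (-0.64, adjusted p = 0.0293), Cenpa (-0.59, adjusted p = 0.0122), Bub1b (-0.43, adjusted p = 0.0399) and Ube2c (-0.36, adjusted p = 0.0431). None of the 4 calls held in every setting: 0 remained without Bcl6 cKO replicate 1 or Irf2 KO replicate 2, 1 without Bcl6 cKO replicate 2 or Irf2 KO replicate 1, and 2 without either WT library. Both libraries labelled Bcl6 cKO were below both Irf2 KO libraries for 31 genes (30.9% of all genes) and above both for 2 (30.9%).

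Levels can be compared between genes only per length. In WT, log2 CPM per kilobase of exon ran from 2.41 for Espl1 to 9.31 for Hmgb2, with Ccnb2 at 7.60, Ube2c at 6.61, Cdca8 at 6.18 and Mki67 at 5.17. In Nr4a1 KO the same per-kilobase levels were 6.11 for Ccnb2, 4.27 for Ube2c, 3.80 for Cdca8 and 4.91 for Mki67. Ube2c and Cdca8 thus stood above Mki67 in WT and below it in Nr4a1 KO by this length, the union of all annotated exons. That union is 5177 bases for Cdca8, against 1626 in its longest coding transcript. For Ube2c the lengths are 2600 and 2191 bases, and for Mki67 both are 10061. With transcript length Cdca8 would stay above Mki67 in Nr4a1 KO, so its place there depends on the length used. Replicates of a genotype also differed over the 57 genes together: replicate 2 was lower than replicate 1 for 43 genes in WT, 38 in Irf2 KO, 45 in Nr4a1 KO and 47 in the libraries labelled Bcl6 cKO. The median differences between the replicates, in the same order, were -0.10, -0.07, -0.14 and -0.19 on the log2 scale, smaller than the median of -0.42 between Nr4a1 KO and WT and near the median of -0.16 for Bcl6 cKO.

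The differences moved with the base composition of the transcripts. Across the 57 genes, the Spearman correlation between transcript GC content and the log2 fold change against WT was -0.65 in Nr4a1 KO, -0.51 in Irf2 KO and -0.62 in the libraries labelled Bcl6 cKO. Over 12740 genes with a known GC content it was -0.35, -0.20 and -0.33. These are descriptions across genes that share libraries and, over the 3 comparisons, the WT samples. The 7 genes at least 2-fold lower in Nr4a1 KO (Cenpa, Cdca8, Ube2c, Cdc20, Spc24, Ccnb2 and Espl1) had a median transcript GC content of 52.9%. The other 17 that fell had 50.4%, the 33 not called 44.1%, and all genes tested 49.4%. The part of base composition in the differences was not tested beyond the correction that follows.

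**Figure D4:**
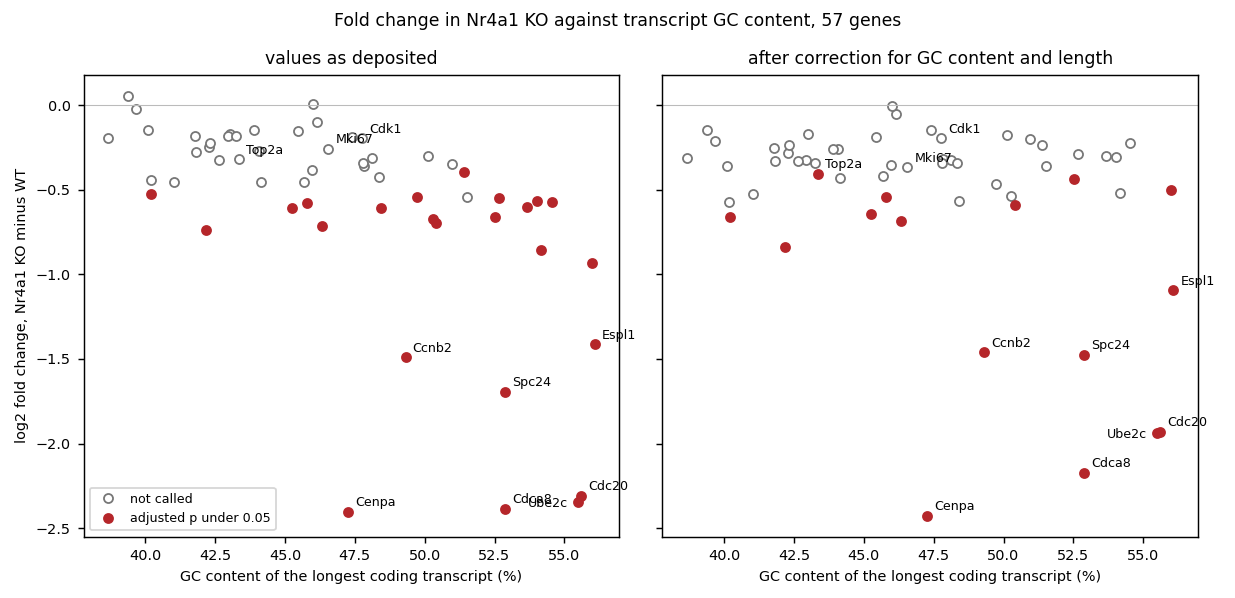
Log2 fold change of the 57 genes in Nr4a1 KO against WT (vertical axis) by GC content of the transcript in percent (horizontal axis), for values as deposited and after correction for GC content and length, with filled points for adjusted p under 0.05. The correlation across genes is -0.65 before and -0.25 after the correction, and Cenpa, Cdca8, Ube2c, Cdc20, Spc24, Ccnb2 and Espl1 stay lowest in both panels.

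Each library was then corrected for GC content and transcript length, a step chosen after seeing the data. With it, 16 of the 57 genes were called lower in Nr4a1 KO and 0 higher (959 and 578 of all genes). The median over the 57 was -0.34, against 0.07 over all genes. Of the 24 calls made before the correction, 15 were kept. All 7 genes with 2-fold differences remained at least 2-fold lower, with Cenpa at -2.43, Cdca8 at -2.17, Ube2c at -1.94, Cdc20 at -1.93, Spc24 at -1.47, Ccnb2 at -1.46 and Espl1 at -1.09. The difference of Plk1 shrank from -0.93 to -0.50 (adjusted p = 0.0416). Calls were lost for Cdc25b (adjusted p = 0.0523), Kif20a (0.0645), Cdca2 (0.0778), Kif2c (0.0885), Kif22 (0.166), Ncapd2 (0.17), Tacc3 (0.18), Aurka (0.184) and Incenp (0.293). Centring each library on its median raised the median of all genes in Nr4a1 KO against WT by 0.13, to 0.14. It called 15 of the 57 genes lower and 0 higher (1145 and 1176 of all genes), with a median of -0.29. The calls lost on centring were those of Anln (adjusted p = 0.0505), Incenp (0.051), Melk (0.052), Ncapd2 (0.0535), Tacc3 (0.0603), Kif2c (0.069), Cdca2 (0.0938), Kif20a (0.0962) and Aurka (0.127).

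Other genes of the same machinery, 98 in a separate list, were all tested. In Nr4a1 KO 25 of them fell (25.5%, against 11.2% of all genes) and 2 rose (3.94% of all genes rose), with a median of -0.27. The largest falls were those of Fbxo5 (-2.17, SE 0.11, adjusted p = 1.69e-05), which encodes the APC/C inhibitor Emi1, of the APC/C subunit Anapc5 (-1.87, SE 0.10, adjusted p = 1.61e-05), of the Cenpa-loading factor Oip5 (-1.85, SE 0.21, adjusted p = 0.000597) and of the Cdk1-inhibiting kinase Pkmyt1 (-1.21, SE 0.25, adjusted p = 0.0134). Cdc16, another APC/C subunit, and the cohesin release factor Wapl rose, by 0.63 (adjusted p = 0.0396) and 0.49 (adjusted p = 0.039). Fbxo5 was 7.35 and 7.15 log2 CPM in WT, 6.65 and 6.77 in the libraries labelled Bcl6 cKO, 7.28 and 7.18 in Irf2 KO, and 5.01 and 5.15 in Nr4a1 KO. Anapc5 was 8.66 and 8.80 log2 CPM in WT, 7.80 and 7.94 in the libraries labelled Bcl6 cKO, 8.34 and 8.36 in Irf2 KO, and 6.89 and 6.82 in Nr4a1 KO. Of both genes the Nr4a1 KO libraries were the lowest, as for Cdc20 and Cenpa.

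In the libraries labelled Bcl6 cKO, 4 of these 98 genes fell (4.08%, near the 3.65% of all genes) and none rose: Anapc5 (-0.85), the cyclin F gene Ccnf (-0.68), Fbxo5 (-0.54) and the cohesin subunit Smc3 (-0.50), with adjusted p from 0.00397 to 0.046. With limma's unadjusted p under 0.05, 16 were lower and 0 higher (1669 and 1086 of all genes). The limma-voom fit called 5 lower and 0 higher (537 and 202 of all genes). In Irf2 KO 5 rose and 4 fell (4.08%), with a median of 0.04, where 9.26% of all genes rose and 12.3% fell. The kinetochore genes Cenph (0.76) and Cenpw (0.62) and the nuclear lamina gene Lmnb1 (0.53) were among those that rose, with adjusted p from 0.0103 to 0.0243, and Pimreg (-0.54, adjusted p = 0.0206) fell most.

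Genes of S phase, 38 in all, moved apart between Irf2 KO and Nr4a1 KO as well. In Nr4a1 KO 8 fell (21.1%, against 11.2% of all genes) and none rose, with a median of -0.29. With limma's unadjusted p under 0.05, 17 were lower and 0 higher (2320 and 1533 of all genes). The limma-voom fit called 8 and 0 (1402 and 473 of all genes). The largest falls were those of the replicative helicase genes Gins4 (-1.96) and Gins3 (-1.27), the polymerase gene Pold1 (-0.99) and the ribonucleotide reductase gene Rrm2 (-0.83), with adjusted p from 0.000112 to 0.00788. With limma's unadjusted p under 0.05 in Irf2 KO, 11 were higher and 0 lower (2013 and 2640 of all genes). The limma-voom fit called 7 and 0 (1190 and 1541 of all genes). Of the 38, 6 rose and none fell in Irf2 KO, with a median of 0.19, where 9.26% of all genes rose and 12.3% fell. They included the G1 cyclin gene Ccne1 (1.26, adjusted p = 0.00999), Rfc4 (0.61, adjusted p = 0.0422), Gins1 (0.49, adjusted p = 0.0198) and Tyms (0.45, adjusted p = 0.0142). In the libraries labelled Bcl6 cKO, Gins4 (-0.71), Mcm2 (-0.53) and Mcm5 (-0.44) fell, with adjusted p from 0.0201 to 0.0457. They made up 7.89% of the S phase genes, against 3.65% of all genes, and none rose (1.36% of all genes). At an unadjusted limma p under 0.05, 11 were lower and 0 higher (1669 and 1086 of all genes). The median over the 38 was -0.24. Against Irf2 KO, 12 of the 38 were lower in these libraries (31.6%, with 3.87% of all genes) and none higher (5.68%). Against Nr4a1 KO, 2 were higher (4.97% of all genes) and none lower (0.776%), with a median of 0.05. Compared directly, 25 of the 38 were higher in Irf2 KO than in Nr4a1 KO and none was lower. Of all genes, 12.4% were higher and 9.94% lower. With limma's unadjusted p under 0.05 the counts were 31 and 0 (2416 and 2232 of all genes). The limma-voom fit called 25 and 0 (1547 and 1197 of all genes).

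Of 16 genes of G1 and cell cycle exit, 15 were tested. Ccnd3, a D-type cyclin that drives G1, was 8.01 and 7.32 log2 CPM in WT, 6.57 and 6.77 in the libraries labelled Bcl6 cKO, 6.57 and 6.76 in Irf2 KO, and 6.81 and 6.53 in Nr4a1 KO. It fell by 0.997, 1.003 and 0.993 in the 3 mutants (adjusted p = 0.032, 0.0129 and 0.014), all set against the same WT libraries, which differed from each other more than those of any mutant. In Irf2 KO, Ccnd2, another D-type cyclin, rose by 4.70 (SE 0.48, adjusted p = 0.00135) and its kinase partner Cdk6 rose by 1.06 (adjusted p = 0.00633), while the antiproliferative genes Btg2 and Btg1 fell by 1.36 (adjusted p = 0.00149) and 0.69 (adjusted p = 0.0131). In Nr4a1 KO, Btg1 rose by 0.65 (adjusted p = 0.0183) and Cdkn1a, the Cdk inhibitor p21, fell by 0.70 (adjusted p = 0.0294).

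Markers of other cells that a Ly6C+ marrow gate could hold were set beside these results. The summed level of 9 of 10 monocyte and granulocyte progenitor markers measured was 1700 and 1960 CPM in WT, 2500 and 2160 in the libraries labelled Bcl6 cKO, 3600 and 4570 in Irf2 KO, and 1910 and 1990 in Nr4a1 KO. Elane, Prtn3 and Mpo make up most of this sum. In Irf2 KO 6 of the 9 rose, Ms4a3, Ctsg and Prtn3 among them, and 1 fell, Cd34. In Nr4a1 KO 2 of the 9 rose, Ms4a3 (1.61, adjusted p = 0.0323) and Ctsg (0.66, adjusted p = 0.0165), and none fell. In the libraries labelled Bcl6 cKO only Elane rose (0.53, adjusted p = 0.048). The summed level of 12 neutrophil markers was 2170 and 1830 CPM in WT, 1190 and 1000 in the libraries labelled Bcl6 cKO, 500 and 1140 in Irf2 KO, and 2330 and 2080 in Nr4a1 KO. Of these 12 markers, Cebpe, a granulocytic transcription factor, was the only one called in Nr4a1 KO (-3.83, adjusted p = 1.61e-05). In Irf2 KO 7 fell and in the libraries labelled Bcl6 cKO 3. Cebpe was among both, at -1.93 in Irf2 KO (adjusted p = 0.00131) and -2.06 for Bcl6 cKO (adjusted p = 0.00238). The summed level of 5 of 10 erythroid markers measured was 34.0 and 33.9 CPM in WT, 27.2 and 19.1 in the libraries labelled Bcl6 cKO, 24.2 and 34.0 in Irf2 KO, and 16.5 and 21.9 in Nr4a1 KO. In Irf2 KO Hba-a1 (-3.39), Hbb-bs (-2.64) and Hbb-bt (-2.12) fell, while Tfrc rose (1.46), with adjusted p from 0.00124 to 0.0108. The Irf2 KO sum therefore mixes falling globin genes with a rise of Tfrc. Only Hba-a1 was called for Bcl6 cKO against WT (-1.52, adjusted p = 0.039). The same was true for Nr4a1 KO (-1.18, adjusted p = 0.0488).

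The summed level of 8 nonclassical monocyte markers was 574 and 717 CPM in WT, 378 and 398 in the libraries labelled Bcl6 cKO, 323 and 278 in Irf2 KO, and 490 and 571 in Nr4a1 KO. In Nr4a1 KO 4 of the 8 fell (Ace, Nr4a1, Treml4 and Pou2f2). Nr4a1 is the gene targeted in these libraries, so its fall there cannot be read as that of a marker. Cx3cr1, Spn and Itgal, which carry the sum there, were not called. In Irf2 KO 6 of the 8 fell, and in the libraries labelled Bcl6 cKO 2. B cell markers summed to 673 to 1040 CPM over the 8 libraries, most of it Ighm, which passed no test against WT. The other B cell markers were scarcer and differed between genotypes: Cd79a was 3.22 and 3.30 log2 CPM in WT, 1.61 and 1.52 in the libraries labelled Bcl6 cKO, -0.03 and -1.28 in Irf2 KO, and 0.43 and 1.31 in Nr4a1 KO. Of 5 B cell markers tested, 3 fell in Irf2 KO (Vpreb3, Cd79a and Igkc), Cd79a fell in Nr4a1 KO (-2.39, adjusted p = 0.00788), and the libraries labelled Bcl6 cKO had a fall of Cd79b (-0.75, adjusted p = 0.0277). Dendritic cell markers summed to 49.7 and 58.1 CPM in WT, 31.4 and 40.9 in the libraries labelled Bcl6 cKO, 9.14 and 2.97 in Irf2 KO, and 29.0 and 42.9 in Nr4a1 KO. The part of cell composition in these differences was not tested.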

How the data were processed

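Total RNA of 8 libraries (4 genotypes, 2 replicates each) had been turned into full-length cDNA with the SMARTer Ultra Low kit and sequenced as paired reads, per the labels. The submitters' processing notes name STAR, featureCounts, Salmon and limma with build mm10, without saying in which order or with which settings. The authors deposited 1 table with log2 CPM per library and, for each mutant against WT, their own log2 fold change, p-value and adjusted p-value. In all libraries the deposited log2 values matched whole read counts, with 0.5 added, to within 0.01 reads, so the read counts per gene were recovered. Of 13789 rows, 45 repeated a gene and were dropped.

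Members, roles and the other gene lists were chosen with earlier results of these data known. limma 3.58.1 (R 4.3.3) with a variance trend was fitted to the log2 CPM of 12752 genes over all 8 libraries (4 residual degrees of freedom), and p-values were adjusted by Benjamini and Hochberg's method within each comparison (threshold 0.05). The fit was also run on simulated data with known changes and independent noise for each gene. That run does not cover genes that vary together or replicates that are technical. Genes given by library were those called against WT (the 24 with the largest change), those changed at least 2-fold, and Mki67, Top2a, Cdk1, Ccnb1, Plk1, Aurka, Aurkb, Birc5 and Bub1. Of other lists, up to 4 called genes with the largest change were named per comparison. Alternatives were no variance trend, no filter and a filter of 4 CPM, median centring, quantile normalization, separate fits of the 2 groups of a comparison, a replicate block, each library left out, limma-voom on recovered reads, and the authors' p-values. Correcting each library for transcript GC content and length (splines with 4 degrees of freedom, GENCODE transcripts) was chosen after seeing the data. No batch is named in the sources used here.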

Additional observations from a re-analysis of the deposited data

How the results depend on the processing

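No called gene of the 57 changed direction against WT under any setting run. Without limma's variance trend, 14 genes were called in Nr4a1 KO against WT, 2 in Bcl6 cKO against WT, 1 in Irf2 KO against WT, 15 between Irf2 KO and Nr4a1 KO and 0 between Bcl6 cKO and Irf2 KO. Median centring called 15 in Nr4a1 KO against WT, and quantile normalization called 2 between Bcl6 cKO and Irf2 KO. The GC content and length correction, chosen after seeing the data, called 5 in Irf2 KO against WT and 8 between Bcl6 cKO and Irf2 KO. In Irf2 KO against WT, limma-voom called 5, and 6 were called in the authors' deposited table. Of these 6, Ccna2, Hmgb2 and Smc2 were higher and Cdc20, Ccnb2 and Plk1 lower. In Nr4a1 KO against WT, the authors' test kept 20 of the 24 calls. Those of Aurka, Kif2c, Cdca2 and Kif20a were lost (the authors' adjusted p from 0.0524 to 0.0776). With 1 library left out, the counts ran from 14 to 26 in Nr4a1 KO, 1 to 6 in Bcl6 cKO and 1 to 5 in Irf2 KO, each against WT. Between mutants they ran from 14 to 29 for Irf2 KO and Nr4a1 KO, 0 to 5 for Bcl6 cKO and Irf2 KO, and 5 to 10 for Bcl6 cKO and Nr4a1 KO. These fits assume that the lone library varies like the others. The median over the 57 genes in Irf2 KO against WT turned from -0.0412 to 0.0608 with median centring, 0.017 with quantile normalization and 0.0442 with the GC correction, and ran from -0.0725 to 0.0295 with 1 library left out (above 0 only without Irf2 KO replicate 2). The cause of these changes was not tested. A replicate block gave 28 calls in Nr4a1 KO, 5 in Bcl6 cKO and 5 in Irf2 KO against WT. Over all genes tested, deviations of same-numbered libraries correlated at -0.00287 to 0.183 between genotypes, so the numbers were not taken to pair samples. Over the 57 genes, however, replicate 2 was lower than replicate 1 for most genes in every genotype (medians from -0.19 to -0.07). Whether the numbers pair samples for these genes was not tested. Each of the 57 genes had at least 793 reads in every library, and the effect of depth on the calls was not tested.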
